A study of Homo sapiens with 6 samples.

Results

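Canonical Wnt signalling runs from secreted Wnt ligands, through Frizzled receptors with their LRP5 and LRP6 co-receptors, to beta-catenin, which binds LEF/TCF factors on DNA. The 10 genes described here stand at the steps of that route. They are the LEF/TCF factors LEF1, TCF7, TCF7L1 and TCF7L2, beta-catenin (CTNNB1), the feedback scaffold AXIN2, the ligand WNT7B, the co-receptors LRP5 and LRP6, and DKK3, a member of the Dickkopf family of secreted proteins. They were taken by symbol, 10 of 54261 gene rows, and chosen by their fold change between the lines in these same libraries, which was already known. Their differences are therefore a description. Where the call of the fit over all genes is given for a member, it is counted beside the share of all genes called and supports nothing.

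The samples were 3 libraries of total RNA from 7R, a line of 786-O cells labelled sunitinib-resistant, and 3 from 786-O cells labelled control. 786-O is an established human line from a clear cell renal carcinoma, and sunitinib is an inhibitor of VEGF and PDGF receptors and other receptor tyrosine kinases. Both lines were grown in the same named medium. The labels do not say whether the drug was in the medium at harvest, whether 7R is a single clone or a pool, or whether each library had its own culture. A p-value here therefore measures spread among libraries that may be technical only. Total counts were between 37919629 and 38131634 in the resistant libraries and between 48264905 and 52221491 in the control libraries.

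Without a Wnt signal, a complex built on AXIN and APC holds beta-catenin so that casein kinase and GSK3 can mark it for destruction. With a signal, that complex is drawn to the receptors, beta-catenin gathers in the nucleus and joins LEF/TCF factors, which otherwise carry TLE corepressors. In the kidney the pathway is known for its part in forming the nephron and the medulla.

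The 4 LEF/TCF factors share a DNA-binding HMG box, and the stretch below shows how alike their transcripts are there. Each line gives the 90 coding bases with the most matches to LEF1 summed over the other 3 genes, with no gaps, from GENCODE 29 transcripts, and capitals mark bases that differ from LEF1.
LEF1: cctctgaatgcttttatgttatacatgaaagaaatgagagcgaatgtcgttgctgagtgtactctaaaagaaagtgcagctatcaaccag
TCF7: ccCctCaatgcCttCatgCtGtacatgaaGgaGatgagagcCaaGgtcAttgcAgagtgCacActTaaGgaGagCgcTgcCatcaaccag
TCF7L1: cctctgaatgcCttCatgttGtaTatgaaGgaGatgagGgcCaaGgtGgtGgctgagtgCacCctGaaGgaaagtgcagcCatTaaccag
TCF7L2: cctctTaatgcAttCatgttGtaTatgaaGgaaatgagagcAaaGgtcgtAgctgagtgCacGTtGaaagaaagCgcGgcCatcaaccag
Over these bases TCF7 differed from LEF1 at 20, TCF7L1 at 17 and TCF7L2 at 16. The longest run of identical bases between any pair of the 4 genes' transcripts was 29, for LEF1 and TCF7L1, and the stretch shown does not hold that run whole. How reads from such runs were assigned cannot be said, since the read length, the counting program and its strand setting were not stated in the sources used.

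LEF1 was the member that differed by the largest fold. Its raw counts were 1, 0 and 1 in resistant replicates 1, 2 and 3, against 266, 219 and 230 in control replicates 1, 2 and 3. As CPM, library-scaled counts with TMM factors, these are 0.0156 ± 0.0135 in resistant and 5.39 ± 0.565 in control libraries (SD, n = 3 each). All resistant libraries lay far below every control library. At 95% confidence, counting error alone lets a library with 0 counts hold a true level of up to about 3 counts. For resistant replicate 2, the library with 0 LEF1 counts, that is 0.0701 CPM. With 2 counts over the resistant libraries, the resistant over control ratio of summed, scaled counts was 0.00289, with an exact 95% interval of 0.000349 to 0.0105 that covers counting error only. The fitted log2 fold change was -8.19 ± 0.42 (SE), a value that depends on the prior count in a gene this near 0. In RNA from bulk cultures, fewer cells with a transcript and less of it per cell cannot be told apart.

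LEF1 lies opposite an antisense gene, LEF1-AS1, which overlaps 5.20% of its exon bases in GENCODE 29 and had 0 counts in all 6 libraries. LEF1 and TCF7 are best known as factors of T cells. Of 6 T cell markers, 5 had 0 counts in every library, among them PTPRC, CD3E and CD2. The sixth, CD3D, had 5 counts over the resistant and 3 over the control libraries.

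TCF7L2 and TCF7 were the factors with sizeable counts in both lines, and they stood in opposite order in the lines. TCF7L2, the family member known for its role in intestinal epithelium and in glucose metabolism, had 55.1, 52.8 and 54.1 CPM in resistant replicates 1, 2 and 3, against 22.9, 21.9 and 24.8 CPM in control replicates 1, 2 and 3. All resistant libraries were higher, with a log2 fold change of 1.22 ± 0.11 (SE). TCF7 had 22.5, 18.2 and 15.9 CPM in resistant replicates 1, 2 and 3, against 38.6, 42.8 and 43.3 CPM in control replicates 1, 2 and 3. All resistant libraries were lower, with resistant replicate 1 nearest the control libraries, and the log2 fold change was -1.14 ± 0.14 (SE).

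The ratio of TCF7L2 to TCF7 counts inside a library does not depend on scaling between libraries. It was 2.45, 2.90 and 3.40 in resistant replicates 1, 2 and 3, against 0.593, 0.511 and 0.572 in control replicates 1, 2 and 3. The groups did not overlap, and the mean log2 ratio was higher in the resistant libraries by 2.37. The ratio does depend on the GC content of the transcripts, described further on. After adjustment for GC content and length it was 1.70, 1.64 and 2.0 in the resistant against 0.877, 0.842 and 1.01 in the control libraries, a log2 difference of 0.97. The groups still did not overlap, while the difference was less than in the raw counts.

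TCF7L1, known mainly as a repressor of Wnt targets, was near 0 in both lines. Its counts were 2, 6 and 0 in resistant replicates 1, 2 and 3, against 2, 0 and 4 in control replicates 1, 2 and 3. The groups overlapped, the gene was under the low-count filter, and the resistant over control ratio of 1.38 had an exact 95% interval of 0.419 to 4.82. At this depth no difference was detectable for it.

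Levels of the 4 factors can be set beside each other only per length of transcript. In the resistant libraries TCF7L2 made up 68.5 ± 3.54% of the family's CPM per kb of transcript, TCF7 31.3 ± 3.51%, TCF7L1 0.100 ± 0.119% and LEF1 0.0497 ± 0.0433% (SD, n = 3). In the control libraries TCF7 made up 59.7 ± 2.45%, TCF7L2 25.3 ± 1.10%, LEF1 15.0 ± 1.96% and TCF7L1 0.0612 ± 0.0594% (SD, n = 3). The order in the resistant libraries was thus TCF7L2 and then TCF7, with LEF1 and TCF7L1 overlapping near 0, and in the control libraries TCF7, TCF7L2, LEF1 and TCF7L1, with no overlap between neighbours. The sum over the family was 20.9 ± 1.36 CPM per kb in resistant and 24.3 ± 0.768 CPM per kb in control libraries, so the make-up differed more than the total. With the longest transcript in place of the median one, a setting chosen after seeing the data, the order stayed and LEF1's share was 0.0237% in resistant and 7.91% in control libraries. All these shares are as counted and not adjusted for GC content. The adjusted CPM of TCF7, given further on, overlapped between the lines.

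**Figure D1:**
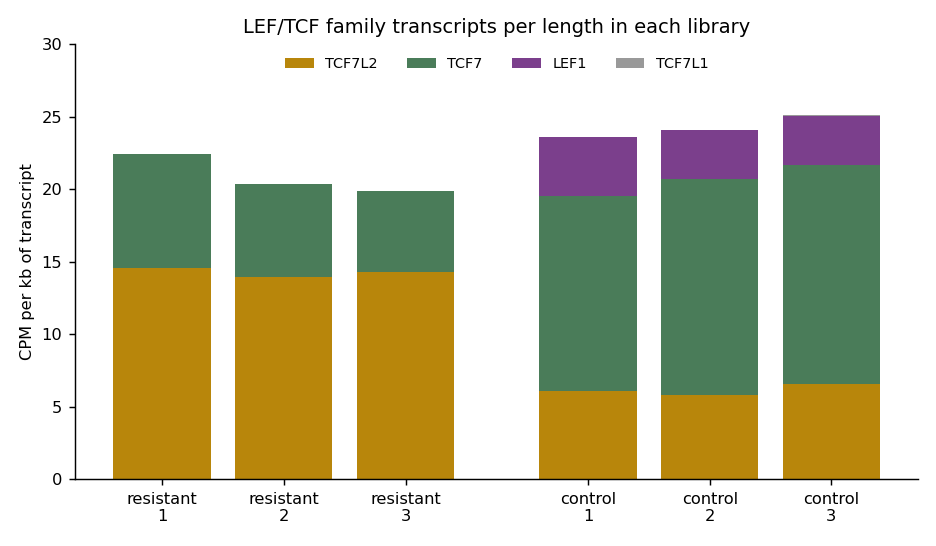
Stacked CPM per kb of transcript of the 4 LEF/TCF factors (colours) in each of the 3 resistant and 3 control libraries, with transcript length taken as the median over GENCODE 29 basic transcripts. Values are as counted, with no adjustment for GC content. TCF7L2 is the largest block in the resistant libraries (mean 14.3 CPM per kb) and TCF7 in the control libraries (mean 14.5 CPM per kb), and the LEF1 block is seen only in the control libraries (mean 3.62 CPM per kb).

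The promoter windows show what lies before the starts of these genes. RefSeq windows (GRCh38.p14, 250 bases before to 50 after a start) were held for 6 of the 10 members, and not for AXIN2, WNT7B, LRP6 and DKK3. Both strands were searched for CTTTGAT, letters that LEF/TCF factors are known to bind, and for its variants with TT, AA or TA in place of the last 2 letters. At least 1 of these motifs was held by 13.8% of 35116 windows. The single LEF1 window held none, nor did the windows of TCF7L1, CTNNB1 and LRP5 or the other windows of TCF7 and TCF7L2. A window at a downstream start of TCF7 held CTTTGTT on the minus strand, first base at -50 from the start. A window at a downstream start of TCF7L2 held it on the plus strand, first base at -133. CTTTGTT occurs in 5.20% of all windows, and neither match overlapped another motif. The 250 bases before these starts are shown for LEF1, as the member nearest 0 in the resistant line, and for both windows with a match, in capitals.
LEF1, chr4:108166302-108166551, minus strand: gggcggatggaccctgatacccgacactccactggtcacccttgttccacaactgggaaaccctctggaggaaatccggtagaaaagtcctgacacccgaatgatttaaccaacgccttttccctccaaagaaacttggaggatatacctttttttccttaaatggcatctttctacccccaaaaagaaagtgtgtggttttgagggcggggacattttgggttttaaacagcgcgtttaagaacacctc
TCF7, chr5:134123368-134123617, plus strand: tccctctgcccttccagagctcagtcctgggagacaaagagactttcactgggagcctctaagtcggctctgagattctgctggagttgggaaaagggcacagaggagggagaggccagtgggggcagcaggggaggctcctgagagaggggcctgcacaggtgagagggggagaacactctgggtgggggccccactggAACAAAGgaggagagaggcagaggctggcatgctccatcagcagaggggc
TCF7L2, chr10:113126383-113126632, plus strand: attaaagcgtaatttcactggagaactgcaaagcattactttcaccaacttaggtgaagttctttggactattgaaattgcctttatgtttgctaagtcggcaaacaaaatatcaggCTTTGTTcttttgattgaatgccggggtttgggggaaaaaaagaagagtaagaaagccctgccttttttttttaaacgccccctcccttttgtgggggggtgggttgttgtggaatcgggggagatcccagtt
A match is a description of the letters and not a bound site, and counts per gene do not show which start a transcript came from.

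WNT7B, a secreted ligand that in mouse kidney is needed for the medulla to form, was the most abundant member of its family per length in both lines. It had 11.9, 5.94 and 5.07 CPM in resistant replicates 1, 2 and 3, against 168, 150 and 174 CPM in control replicates 1, 2 and 3. All resistant libraries were far lower, and resistant replicate 1 was the highest of them. The log2 fold change was -4.43 ± 0.27 (SE), and -4.90 without that library. Over the 19 Wnt ligands, WNT7B made up 72.6 ± 13.3% of CPM per kb in resistant and 95.7 ± 0.295% in control libraries (SD, n = 3 each). The sum over the ligands was 4.54 ± 1.44 CPM per kb in resistant and 76.3 ± 5.54 CPM per kb in control libraries, so the ligand total followed WNT7B.

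LRP5 and LRP6, the co-receptors that a Wnt ligand joins to Frizzled, were far apart in level. LRP5 had 78.8, 53.5 and 53.2 CPM in resistant replicates 1, 2 and 3, against 104, 117 and 125 CPM in control replicates 1, 2 and 3. LRP6 had 1.67, 1.47 and 4.48 CPM in resistant replicates 1, 2 and 3, against 0.704, 0.323 and 0.309 CPM in control replicates 1, 2 and 3. Neither gene's groups overlapped, LRP5 being lower and LRP6 higher in the resistant libraries. LRP6 rested on 72, 63 and 190 counts in the resistant and 31, 14 and 14 counts in the control libraries, with resistant replicate 3 well above the others. Its log2 fold change was 2.50 ± 0.49 (SE), and 1.81 without that library. LRP5's log2 fold change was -0.90 ± 0.15 (SE). Per length, LRP5 made up 97.0 ± 2.25% of both co-receptors' CPM per kb in resistant and 99.7 ± 0.165% in control libraries (SD, n = 3 each), so LRP5 was the main co-receptor transcript in both lines by these counts. How overlapping or ambiguous reads were counted is not stated, and the shares rest on the low LRP6 counts as deposited.

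CTNNB1, whose product beta-catenin is controlled mainly by protein stability, differed little. It had 212, 183 and 169 CPM in resistant replicates 1, 2 and 3, against 223, 214 and 218 CPM in control replicates 1, 2 and 3. The resistant libraries were all lower, though resistant replicate 1 lay close to the lowest control library. The log2 fold change was -0.22 ± 0.11 (SE), and 0.13 with scaling by library size alone, so its direction turned with the scaling.

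AXIN2 is both a part of the destruction complex and a widely used direct target of beta-catenin with LEF/TCF. It had 1.62, 1.12 and 1.25 CPM in resistant replicates 1, 2 and 3, against 7.95, 8.23 and 7.42 CPM in control replicates 1, 2 and 3. All resistant libraries were lower, with a log2 fold change of -2.56 ± 0.20 (SE). In GENCODE 29 a gene on the same strand, AC004805.1, shares 25.2% of its exon bases, so reads of the pair may be counted together. Its relative AXIN1, the constitutive scaffold of the complex, had 14.3 ± 1.69 CPM per kb in resistant and 29.6 ± 1.70 CPM per kb in control libraries. AXIN1's direction turned with the adjustment for GC content and length described further on, from a log2 fold change of -1.05 as counted to 0.25 (adjusted p = 0.00723 by edgeR's quasi-likelihood test). AXIN2 made up 2.73 ± 0.239% of both scaffolds' CPM per kb in resistant and 7.46 ± 0.612% in control libraries (SD, n = 3 each).

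DKK3, a secreted Dickkopf relative that is often lower in tumours and has no settled role at LRP receptors, had 12.0, 10.9 and 11.8 CPM in resistant replicates 1, 2 and 3. The control replicates 1, 2 and 3 had 34.3, 36.8 and 39.7 CPM. The resistant libraries were all lower and close together, with a log2 fold change of -1.68 ± 0.12 (SE). DKK1 and DKK2, the classical LRP inhibitors of the family, had 0 counts in all 6 libraries, and DKK3 made up 99.8% of the family's CPM per kb in both lines.

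**Figure D2:**
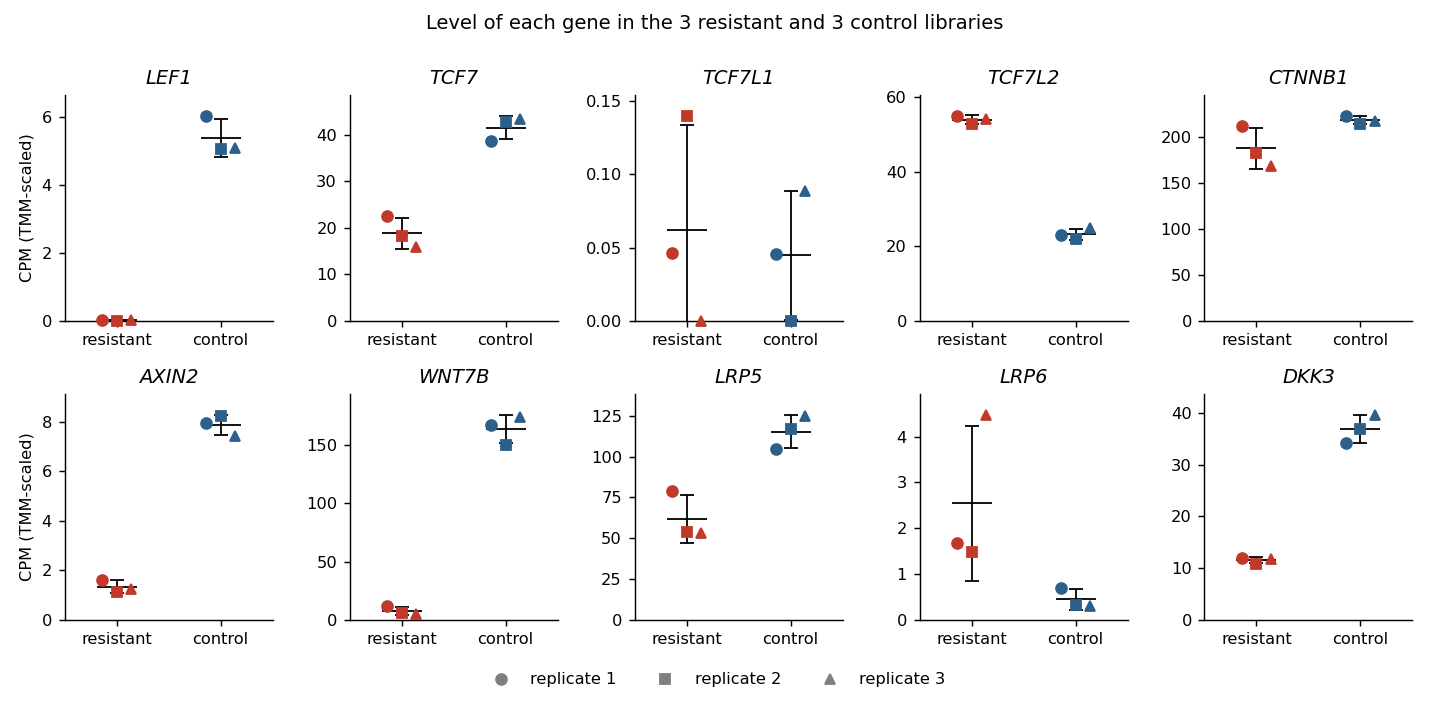
CPM of each of the 10 genes in every library, resistant (red) left of control (blue), on a linear axis from 0 with its own range per gene. Symbols give the replicate, horizontal bars the mean and error bars the SD of 3 libraries. Only TCF7L1 overlaps between the lines, and resistant replicate 1 lies nearest the control libraries for TCF7, CTNNB1, AXIN2, WNT7B, LRP5 and, narrowly, DKK3.

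Counted over the members, 9 of 10 passed the low-count filter. At an adjusted p of 0.05 by edgeR's quasi-likelihood test, 2 of the 9 were higher (TCF7L2, LRP6), 6 were lower (LEF1, TCF7, AXIN2, WNT7B, LRP5, DKK3) and CTNNB1 was not past the threshold. Over all 16642 genes tested 76.2% were called, 39.3% higher and 36.9% lower. The groups did not overlap for all 9 members tested, against 80.3% of all genes. Since the members were chosen with this difference known, nothing is read from their counts. The median log2 fold change over all genes was 0.05, with quartiles of -0.93 and 1.14. The TCF7 and LRP5 values lie near the lower quartile and the TCF7L2 value, 1.22, near the upper one. Scaling by library size alone moved that median to 0.39 and the calls to 7851 higher and 4720 lower, against 6540 higher and 6143 lower with TMM.

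Across all genes, those rich in GC were lower in the resistant line and those poor in GC were higher. Log2 fold change and transcript GC content gave a Spearman's rho of -0.69 across 14212 genes, which are not independent replicates. The lower members WNT7B, LRP5, TCF7, AXIN2 and DKK3 had GC contents of 64.0%, 62.8%, 57.5%, 55.2% and 54.6%. The higher members TCF7L2 and LRP6 had 45.8% and 43.5%, with CTNNB1 at 47.1% and LEF1 at 50.2%. All 6 lower members thus had a higher GC content than both higher members. The members were chosen by their fold change, so nothing is read from this order. Within the resistant line, replicate 1 was the least like the others. Its chi-square per degree of freedom against the other resistant libraries was 62.9 and 60.1, against 8.94 between those 2. In the control line replicate 1 also stood apart, at 26.5 and 35.5, against 12.4 between control replicates 2 and 3.

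**Figure D3:**
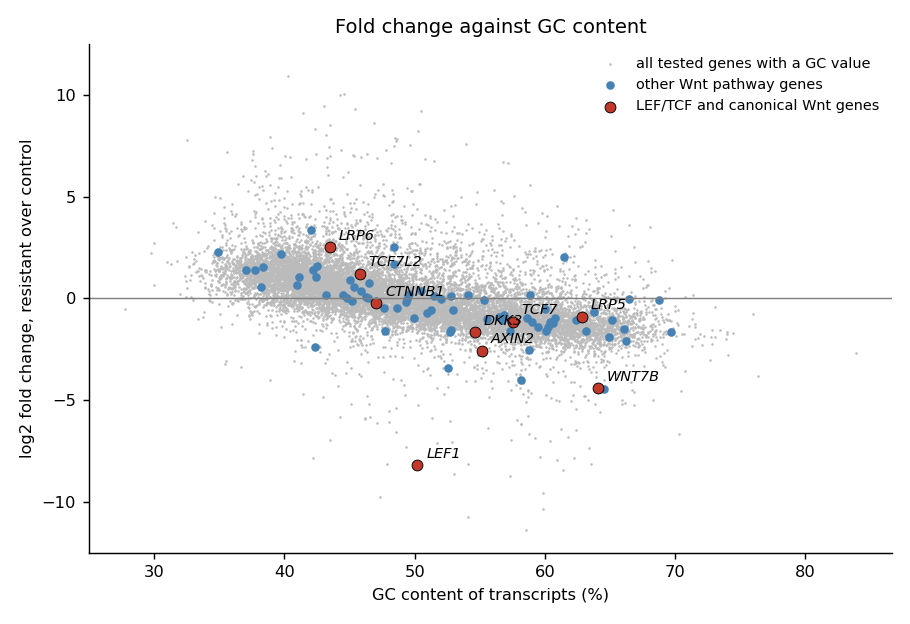
Log2 fold change, resistant over control, against the GC content (%) of the transcripts for all genes tested that have a GC value (grey), the other Wnt pathway genes (blue) and the members tested (red, named). The cloud slopes down with GC content (rho -0.69), and LEF1 at -8.19 lies far below most genes of like GC content.

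Each library was then freed of its smooth trend with GC content and length, and the members parted. LEF1 (-7.90 ± 0.43), WNT7B (-2.93 ± 0.19), AXIN2 (-1.81 ± 0.18) and DKK3 (-0.91 ± 0.08) stayed lower and TCF7L2 (0.83 ± 0.09) and LRP6 (1.68 ± 0.47) stayed higher, as log2 fold changes with SE. TCF7 was at -0.13 ± 0.09 (SE), no longer past the threshold. Without resistant replicate 1, a setting added after the data were seen, 5054 genes were called higher and 4851 lower of 14738 tested. In that fit TCF7 was past the threshold at -0.21 (adjusted p = 0.0456 by edgeR's quasi-likelihood test), which supports nothing for a chosen member. With all libraries kept, the adjusted CPM of TCF7 were 31.3, 29.5 and 25.4 in resistant replicates 1, 2 and 3. They were 30.7, 32.4 and 31.3 in control replicates 1, 2 and 3, so the groups overlapped. LRP5 changed direction, to 0.37 ± 0.09 (SE). Its adjusted CPM were 119, 99.3 and 90.7 in resistant replicates 1, 2 and 3, against 76.2, 81.9 and 80.4 in control replicates 1, 2 and 3, with no overlap. CTNNB1 passed the threshold at -0.41 ± 0.09 (SE). With this adjustment 3 of the 9 members were higher, 5 lower and 1 not past, where 67.0% of 14212 genes were called, 34.4% higher and 32.6% lower. The adjustment also removes any biological difference that goes with GC content. GC content moved with fold change over all genes, and its part in the gene groups below was not tested beyond this adjustment.

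**Figure D4:**
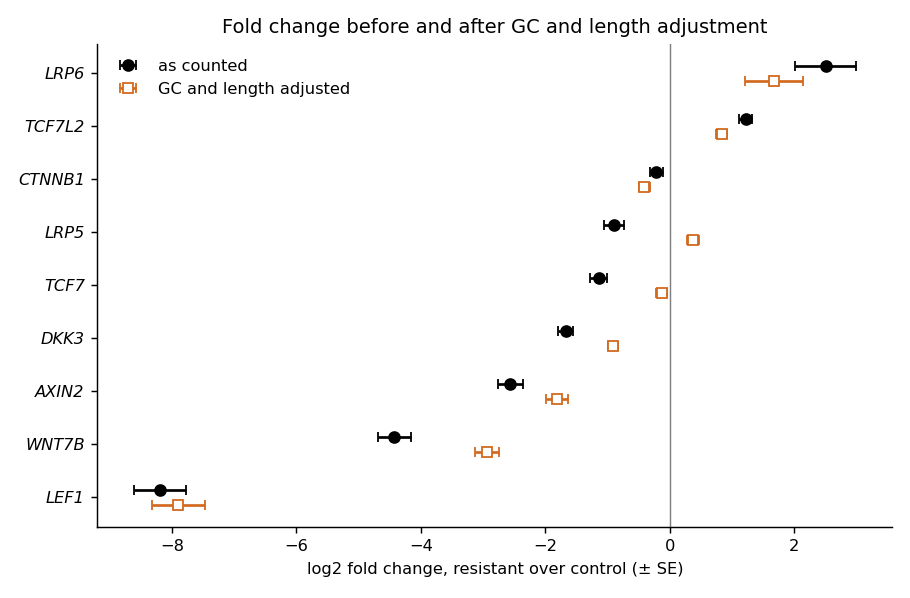
Log2 fold change, resistant over control, with its SE for the 9 members tested, as counted (black circles) and after GC and length adjustment (orange squares), ordered by the value as counted. LRP5 crosses 0 (from the value as counted, -0.90, to 0.37), TCF7 comes close to it (-0.13), and LEF1 moves least for its size (-8.19 as counted and -7.90 adjusted).

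The other genes of the pathway were taken as whole families and textbook parts, 127 genes in 10 role groups. Of these, 26 had 0 counts in every library, 27 were under the low-count filter and 74 were tested, of which 19 (25.7%) rose and 37 (50%) fell in the resistant line. Over all genes 39.3% were higher and 36.9% lower. With such shares, calls in both directions inside a role group below do not set that group apart from all genes. The median log2 fold change of the 74 was -0.31, against 0.05 over all genes. After GC and length adjustment 28 were higher and 22 lower with a median of -0.02, against 0.02 over all genes. Of all genes in that fit 34.4% were higher and 32.6% lower. Without resistant replicate 1 the adjusted counts were 27 higher and 31 lower of 78 tested. Over all 14738 genes tested in that fit, 5054 were higher and 4851 lower. The direction that held more pathway genes thus turned with that library left out, and the set tested also differed. Of the calls before adjustment, 15 stayed higher and 16 stayed lower, 5 turned from lower to higher and 1 from higher to lower. Adjusted p-values below are from edgeR's quasi-likelihood test over all genes, levels are mean ± SD of 3 libraries, and "adjusted for GC" means for GC content and length.

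**Figure D5:**
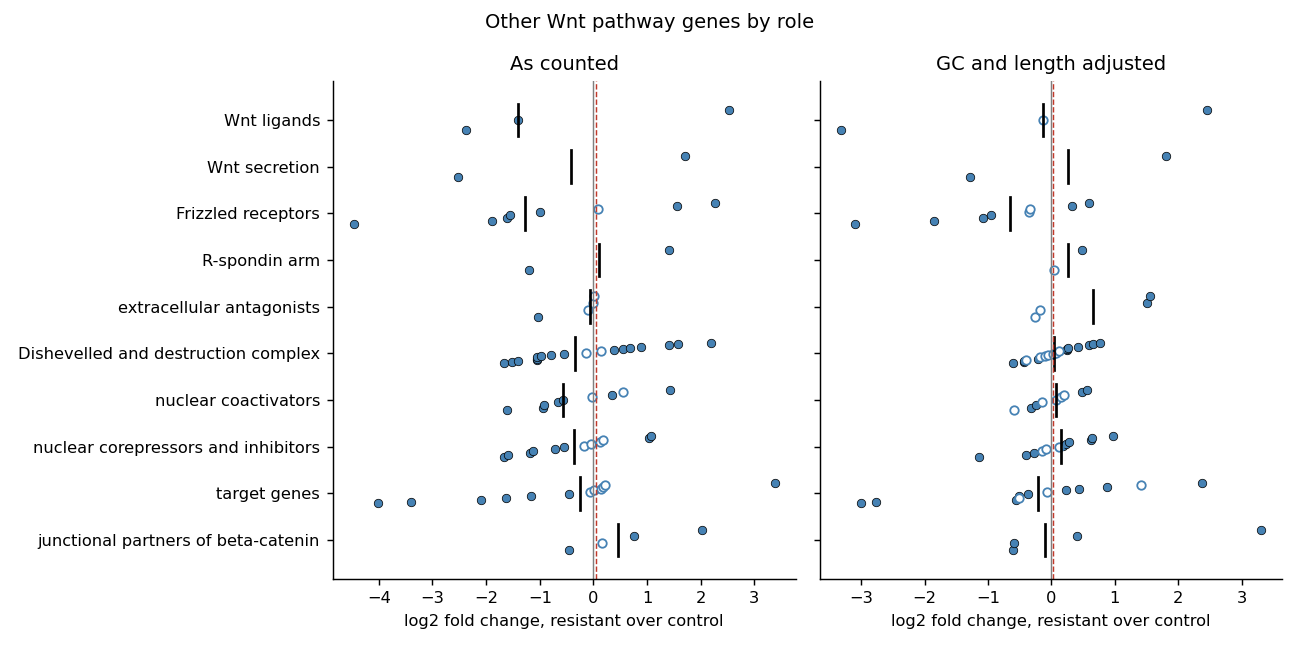
Log2 fold change, resistant over control, of the 74 other Wnt pathway genes tested, by role, as counted (left) and adjusted for GC content and length (right). Filled points are past an adjusted p of 0.05 and open points are not, black bars are group medians and the dashed red line is the median of all genes (0.05 left, 0.02 right). The nuclear and destruction complex groups spread on both sides of 0 on the left and draw in toward 0 on the right. On the right, 1 Frizzled gene (FZD8), 1 ligand (WNT5A) and 2 target genes (EPHB2, BMP4) lie at -2.77 or lower. BMP4 rests on low summed counts, 9 in resistant and 102 in control libraries.

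Of the other 18 Wnt ligands, 11 had 0 counts and 3 were tested. WNT5A, a ligand best known for signalling that does not use beta-catenin, fell to 3.25 ± 1.66 CPM in resistant libraries, against 16.7 ± 1.34 CPM in control libraries. Its log2 fold change was -2.37 ± 0.28 (SE, adjusted p = 8.57e-06), and -3.33 adjusted for GC. The remaining ligands, named after their values were seen, were WNT2B, which rose to 1.45 against 0.252 CPM (log2 fold change 2.52, adjusted p = 0.00113, and 2.46 adjusted for GC), and WNT10B at -1.41 (adjusted p = 0.0353), which was at -0.14 and not past the threshold when adjusted for GC. The group thus had calls in both directions, as did the secretion pair and the genes as a whole. PORCN, the enzyme that attaches a lipid to Wnt proteins, fell to 7.17 ± 0.833 CPM in resistant libraries, against 41.4 ± 4.16 CPM in control libraries (log2 fold change -2.53, adjusted p = 4.78e-08, and -1.28 adjusted for GC). WLS, the carrier that takes lipid-bearing Wnts to the cell surface, rose to 6.36 ± 0.680 CPM in resistant libraries, against 1.95 ± 0.558 CPM in control libraries (log2 fold change 1.71, adjusted p = 2.35e-05, and 1.81 adjusted for GC).

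Of 10 Frizzled receptors 8 were tested, and 2 rose, 5 fell and 1 (FZD4) was not past the threshold. Adjusted for GC the counts were 2, 4 and 2. FZD8 fell to 0.281 ± 0.178 CPM in resistant libraries, against 6.26 ± 0.388 CPM in control libraries (log2 fold change -4.47, adjusted p = 5.14e-07, and -3.09 adjusted for GC). FZD3, known for axon guidance and planar polarity, rose to 14.2 ± 2.74 CPM in resistant libraries, against 2.97 ± 0.382 CPM in control libraries (log2 fold change 2.26, adjusted p = 6.9e-07, and 0.59 adjusted for GC). Per length the make-up of the family differed between the lines. FZD6, named after its values were seen, made up 80.2 ± 4.45% of Frizzled CPM per kb in resistant and 35.2 ± 2.31% in control libraries. FZD7 made up 5.90% in resistant and 21.9% in control libraries, and FZD2 3.95% in resistant and 18.6% in control libraries. FZD6 has a low GC content, 38.4%, and its log2 fold change of 1.55 was 0.32 when adjusted for GC. FZD2 was at -1.90 as counted, and at -0.34 and not past the threshold when adjusted for GC (adjusted p = 0.0565), while FZD7 was at -1.55 and -1.08 and past it both times.

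In the R-spondin arm, which sets how much Frizzled stays at the surface, 2 of 9 genes were tested. LGR4, a receptor for R-spondins, rose to 39.3 ± 2.12 CPM in resistant libraries, against 14.9 ± 1.15 CPM in control libraries (log2 fold change 1.40, adjusted p = 5.73e-07, and 0.48 adjusted for GC). ZNRF3, a ubiquitin ligase that removes Frizzled and is itself a Wnt target, fell to 24.3 ± 2.93 CPM in resistant libraries, against 55.6 ± 0.789 CPM in control libraries (log2 fold change -1.19, adjusted p = 2.03e-06). Adjusted for GC it was at 0.05 with the sign turned and not past the threshold (adjusted p = 0.623). Of 16 extracellular antagonists 8 had 0 counts, and of the 4 tested only KREMEN1, a Dickkopf co-receptor, was past the threshold. It fell to 28.1 ± 4.35 CPM in resistant libraries, against 57.3 ± 2.54 CPM in control libraries (log2 fold change -1.03, adjusted p = 1.22e-05), and was at -0.18 and not past the threshold when adjusted for GC (adjusted p = 0.063). KREMEN1 was past it, as lower, with adjustment for GC content alone (-0.20) and with GC and length adjustment without resistant replicate 1 (-0.27). KREMEN2 and NOTUM, named after their values were seen, overlapped between the lines as counted, at log2 fold changes of -0.09 and -0.02. They were past the threshold as higher when adjusted for GC, at 1.55 and 1.51, values that thus come almost wholly from the adjustment. Their summed counts were low, 117 in resistant and 129 in control libraries for KREMEN2, and 45 and 47 for NOTUM.

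Of 19 Dishevelled and destruction complex genes 18 were tested, and 7 rose, 9 fell and 2 were not past the threshold, with a median log2 fold change of -0.35. Adjusted for GC, 7 rose, 4 fell and 7 were not past, with 3 turned from lower to higher, 1 from higher to lower and a median of 0.05. TNKS2, a tankyrase that marks AXIN for breakdown, rose to 111 ± 7.98 CPM in resistant libraries, against 37.5 ± 7.66 CPM in control libraries (log2 fold change 1.57, adjusted p = 1.2e-06, and 0.66 adjusted for GC). CSNK1G2, a membrane casein kinase, fell to 70.4 ± 4.03 CPM in resistant libraries, against 146 ± 8.74 CPM in control libraries (log2 fold change -1.05, adjusted p = 1.92e-06). Adjusted for GC it was higher, at 0.42 (adjusted p = 3.22e-04).

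The nuclear partners of LEF/TCF and beta-catenin also had calls in both directions, as all genes did. Of 9 coactivators 2 rose, 5 fell and 2 were not past the threshold, and adjusted for GC 2 rose and 2 fell. TBL1XR1, a subunit of the NCoR and SMRT corepressor complexes that also serves beta-catenin, rose to 458 ± 62.2 CPM in resistant libraries, against 171 ± 25.4 CPM in control libraries (log2 fold change 1.42, adjusted p = 1.57e-06), and was at 0.07 and not past when adjusted for GC (adjusted p = 0.424). PYGO2, a chromatin reader that joins beta-catenin through BCL9, fell to 17.4 ± 4.41 CPM in resistant libraries, against 53.5 ± 3.6 CPM in control libraries (log2 fold change -1.62, adjusted p = 2.33e-06, and -0.32 adjusted for GC). Of 12 corepressors and inhibitors tested 2 rose, 6 fell and 4 were not past, and adjusted for GC 6 rose and 3 fell. TLE1, the Groucho corepressor carried by LEF/TCF factors, fell to 43.8 ± 3.48 CPM in resistant libraries, against 138 ± 5.49 CPM in control libraries (log2 fold change -1.66, adjusted p = 1.41e-07, and -1.14 adjusted for GC). AES, a short Groucho relative, fell to 65.1 ± 7.26 CPM in resistant libraries, against 197 ± 4.66 CPM in control libraries (log2 fold change -1.60, adjusted p = 2.14e-07), and was at -0.09 and not past when adjusted for GC (adjusted p = 0.274), though past it at -0.20 with GC content alone (adjusted p = 0.0262).

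Of 22 genes known as Wnt targets in other tissues 12 were tested, and 1 rose, 6 fell and 5 were not past the threshold. Adjusted for GC, 4 rose and 5 fell. EPHB2, an ephrin receptor, fell to 3.06 ± 0.809 CPM in resistant libraries, against 49.9 ± 5.78 CPM in control libraries (log2 fold change -4.02, adjusted p = 2.01e-08, and -3.01 adjusted for GC). CCND1, which encodes cyclin D1, fell to 288 ± 23.4 CPM in resistant libraries, against 887 ± 42.2 CPM in control libraries (log2 fold change -1.62, adjusted p = 1.26e-07, and -0.56 adjusted for GC). Both stayed lower after adjustment, as did BMP4 (log2 fold change -3.40, and -2.77 adjusted), which like the next 2 genes is named after its values were seen. BMP4 had low summed counts, 9 in resistant and 102 in control libraries. The single target that rose was NRCAM, a neural adhesion molecule, with a log2 fold change of 3.38 (adjusted p = 8.6e-06), and 2.38 adjusted for GC. MYC was at -0.06 (adjusted p = 0.74), and at 0.88 and past the threshold when adjusted for GC.

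Beta-catenin also joins cadherins at cell junctions, and 4 of 7 genes of that group were tested. JUP, plakoglobin, the close relative of beta-catenin, rose to 6.35 ± 0.768 CPM in resistant libraries, against 1.57 ± 0.530 CPM in control libraries (log2 fold change 2.02, adjusted p = 1.73e-05, and 3.31 adjusted for GC). CTNNA1, alpha-catenin, which links the complex to actin, fell to 529 ± 38.4 CPM in resistant libraries, against 730 ± 29.4 CPM in control libraries (log2 fold change -0.46, adjusted p = 8.48e-04, and -0.61 adjusted for GC). With scaling by library size alone it was at -0.12 and not past the threshold. CDH1, the epithelial cadherin, had 13 counts over the resistant and 7 over the control libraries, while CDH2, the cadherin of mesenchymal and many renal tumour cells, was at 424 ± 15.7 CPM in resistant and 380 ± 20.3 CPM in control libraries. CDH2's log2 fold change of 0.16 was not past the threshold as counted, and at -0.59 it was past it, as lower, when adjusted for GC.

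The genes whose pattern over the 6 libraries was most like that of LEF1 were OPN3, TGIF1 and METRN, each with a Pearson r of 0.999 in log2 CPM. The libraries fall into the 2 lines, so r ranks mainly how evenly a gene separates them, and 3763 of 10515 genes compared had r over 0.95. As counted, the log2 fold change was -0.68 for OPN3, -0.56 for TGIF1 and -1.82 for METRN, so genes alike in pattern differed from LEF1 in the size of their difference. Adjusted for GC, OPN3 was at -1.03, TGIF1 at -0.43 and METRN at -0.19 and not past the threshold, and TGIF1 was at -0.22 and not past with library size alone.

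The labelled cell type was checked on markers, since the extraction text of the labels mentions a brain region. PAX8, a renal lineage factor, had 407 CPM in resistant and 545 CPM in control libraries on average. As a log2 fold change it was at -0.42, and at 0.51 adjusted for GC, so its direction turned. PAX2 turned too, at -1.10 and 0.24, while CUBN was higher both ways, at 2.23 and 1.64. The summed levels that follow are as counted. EPCAM and CDH1 of the epithelial list were near 0 in both lines, while KRT8 and KRT18 were abundant. Summed CPM of the 7 renal lineage markers were 485 to 517 in resistant and 672 to 782 in control libraries, and those of the 5 epithelial markers 611 to 908 in resistant and 2162 to 2641 in control libraries. Of the brain lists, MOG and OLIG2 had 0 counts in every library. The 7 neuron markers summed to 74.8 to 95.7 CPM in resistant and 107 to 120 CPM in control libraries, mostly NEFL, but SNAP25 and SYT1 went the other way. SNAP25 had 12.9 CPM in resistant and 3.32 CPM in control libraries, SYT1 2.29 CPM in resistant and 0.405 CPM in control libraries, and GAD1 1.86 CPM in resistant and 4.27 CPM in control libraries. The 4 astrocyte markers summed to 0.324 to 0.495 CPM in resistant and 0.0221 to 0.230 CPM in control libraries. MBP of the oligodendrocyte list averaged 39.4 CPM in resistant and 25.1 CPM in control libraries. The 5 endothelial markers summed to 0.919 to 1.10 CPM in resistant and 0.204 to 0.817 CPM in control libraries. The 5 fibroblast and pericyte markers summed to 34.5 to 64.1 CPM in resistant and 7.77 to 9.89 CPM in control libraries, mostly LUM, PDGFRB and RGS5, with PDGFRA at 1 count over the resistant and 8 over the control libraries. The 6 T cell markers summed to 0.0236 to 0.0467 CPM in resistant and 0 to 0.0691 CPM in control libraries. The part of these marker differences in the Wnt results was not tested.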

How the data were processed

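RNA of 3 resistant and 3 control libraries, grouped by their titles and phenotype labels, was analysed from the authors' deposited table of raw counts per gene symbol. HISAT2 2.0.4 was among the tools, per the submitters' processing notes. No counter, genome build or annotation is given in the sources used here. No sample column was left over (0 columns), and no library was treated as a duplicate.

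The edgeR 4.0.16 quasi-likelihood test (R 4.3.3) compared the lines over 16642 genes kept by filterByExpr, with TMM factors of 1.12 to 1.14 in resistant and 0.867 to 0.912 in control libraries and Benjamini-Hochberg adjustment at 0.05. A standard error is the size of the log2 fold change divided by the root of its F statistic.

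For the GC and length adjustment, natural splines (6 degrees of freedom for GC, 5 for log2 length, each the median over GENCODE 29 basic transcripts) were fitted to the deviation of every library in log2 CPM (prior count 1) and entered as an offset. Of genes tested 85.4% had a GC value. The adjustment without resistant replicate 1, the TCF7L2 to TCF7 ratios and the longest-transcript lengths were chosen after seeing the data.

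The members, lists and alternatives were chosen with earlier results of these data known. Named genes are the members, the 2 genes with the smallest p in each role group (mean of at least 1 CPM, past the threshold), both secretion genes and the 3 genes most like LEF1 (mean of at least 5 CPM). DESeq2 1.42.0 was an alternative. Other genes are said to be named after their values were seen. 1 marker gene of the lists is not reported here.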

Additional observations from a re-analysis of the deposited data

How the results depend on the processing

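The count of other Wnt pathway genes called lower was the count that moved most with the settings. It was 37 as reported, 22 with GC and length adjustment, 22 with that adjustment and a replicate block, and 22 with GC adjustment alone, but 31 with GC and length adjustment without resistant replicate 1, and between 36 and 40 with 1 library left out. Those called higher were 19 as reported, between 17 and 20 with 1 library left out, and 28 with library size alone, which gave 30 lower. With the GC settings, in the order above, 28, 27, 26 and 27 were called higher. The number tested was 74 as reported and 76 to 78 with 1 library left out. Over all genes, leaving out a library gave 6179 to 6789 higher and 5894 to 6410 lower, and DESeq2 gave 6461 higher and 6126 lower. Among the members 2 were higher and 6 to 7 lower with 1 library left out, CTNNB1 joining the lower ones without resistant replicate 1.

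Among the members and the genes named by the rule above, these log2 fold changes reversed. CTNNB1 was at 0.13 with library size alone. With GC and length adjustment, the same with a replicate block, GC adjustment alone, and GC and length adjustment without resistant replicate 1, in that order, LRP5 was at 0.37, 0.36, 0.48 and 0.26. ZNRF3 was at 0.0462, 0.0476, 0.0625 and 0.0327, and CSNK1G2 at 0.42, 0.41, 0.44 and 0.47. The cause was not tested. Over all 17 alternatives LEF1 ranged from -8.54 to -7.69, WNT7B from -4.90 to -2.93, AXIN2 from -2.74 to -1.79, DKK3 from -1.78 to -0.90, TCF7 from -1.29 to -0.13, TCF7L2 from 0.80 to 1.56 and LRP6 from 1.57 to 2.94, each keeping its direction. The TCF7L2 to TCF7 log2 ratio difference was 2.26 to 2.49 with 1 library left out and 0.996 with GC adjustment alone.

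Same-numbered libraries of the lines did not deviate together (r of -0.13, -0.01 and -0.06). With 3 libraries in each line, this cannot show whether the numbers pair them. A fit with the replicate number as a block gave 6246 higher and 5851 lower over all genes, 19 and 36 among the other Wnt genes, and 2 and 6 among the members. Depth limits LEF1 in the resistant line, TCF7L1 and LRP6, whose counts are low.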
